A study of Mus musculus with 6 samples.

Results

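The genes described here encode channels that open when a membrane is stretched or that are linked to stretch sensing: the Piezo channels Piezo1 and Piezo2, the polycystins Pkd1 and Pkd2, and the transient receptor potential (Trp) channels Trpc1, Trpc6, Trpv2, Trpv4 and Trpm7. A gene was taken from the deposited value table where a transcript cluster, the set of probes read as 1 unit on the array, carried its symbol and no other, and where a gene had several clusters the one with the highest mean over the 6 arrays stood for it. This gave 8 of the 9 genes, out of 19933 genes named in the table. Pkd2 was not analysed here. The set was selected on measured values: it was chosen because Piezo2 lay higher in all knockout hearts than in each wild-type heart, so the knockout against wild-type values are given as a description, without a test of the channel genes.

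The series compared hearts of mouse embryos at E12.5 of gestation, 3 labelled wild type and 3 labelled knockout (KO) for β1 integrin, the product of Itgb1. The submitters describe this stage as earlier than any evident dysfunction of the mutants. Each sample was read on 1 Affymetrix Mouse Gene 1.0 ST array. The labels give neither the allele, the strain, the cells that lost the gene, nor any promoter driving a Cre recombinase, and they do not say whether hearts were pooled. The samples are called biological replicates, and heart below stands for 1 sample. Where 3 values are given for a group, they stand in the order of replicates 1 to 3.

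Piezo proteins are large trimeric cation channels that open in direct response to membrane tension and let calcium in. Piezo1 is known from the endothelium and from red blood cells, and Piezo2 from touch and stretch-sensing neurons. Polycystin 1, the product of Pkd1, is a large membrane protein that forms a complex with the cation channel polycystin 2 and is found on primary cilia. The Trp channels of this set are cation channels that have been linked to stretch, swelling or shear with differing directness. Integrins join the matrix to the actin cytoskeleton, and so hold one end of the structures through which cells bear load.

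The gene that was targeted is given before the channels. Itgb1 read 11.76, 11.80 and 11.78 (log2) in the wild-type hearts and 11.53, 11.42 and 11.65 in the knockout hearts. The knockout hearts all lay below the wild-type hearts, by a difference of -0.25 ± 0.09 (SE, n = 3 per group). An exact permutation test over the 20 splits of the arrays, two-sided, gave p = 0.1, which is as low as 3 arrays against 3 can go. Whether the Itgb1 probes lie within the deleted part is not given, so they may not check the labels.

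The table as a whole set the scale for the channel genes. The medians of the 6 arrays lay between 6.65 and 6.70. No cluster passed limma's test over all 28767 clusters: at a Benjamini-Hochberg adjusted p under 0.05 the count was 0, or 0.0%, with a smallest adjusted p of 0.601, and at an unadjusted p under 0.05 it was 1705. Knockout replicate 1 stood apart, with a mean correlation of 0.988 with the other arrays, where each of the rest had 0.993 to 0.994. The 7 heart muscle markers, among them Tnnt2, Myh6 and Actc1, had means of 12.76 to 12.81 in wild-type and 12.69 to 12.79 in knockout hearts. By their means 2 were higher and 5 lower. Nkx2-5, at -0.17 ± 0.08 (log2, SE), was the 1 marker with no overlap between the groups, beside 12.6% of all clusters. In the whole-heart RNA measured here, more cells of a type and more RNA per cell cannot be told apart.

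Piezo2 was the channel gene with the largest difference between the groups. Its signal was 7.42, 7.34 and 7.69 (log2) in the wild-type hearts. In the knockout hearts it was 8.10, 7.97 and 8.35. All knockout hearts were thus above all wild-type hearts, and the gap between the highest wild-type and the lowest knockout heart was 0.28, a little less than the range of 0.34 within the wild-type group. The difference of the means was 0.66 ± 0.13 (log2, SE, n = 3 per group), or 1.58-fold. Of all clusters, 1.12% had a larger difference in either direction, and 301 were higher in the knockout by more. Leaving out any 1 heart gave differences of 0.55 to 0.76, and without knockout replicate 1 the value was 0.68.

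Piezo1, the sister channel, was nearly level between the groups. Its signal was 9.57, 9.54 and 9.54 in the wild-type hearts and 9.58, 9.58 and 9.45 in the knockout hearts. Knockout replicate 3 was lower than every wild-type heart, and the others were above every one, at 0.04 and 0.03 over the wild-type mean of 9.55. The difference was -0.01 ± 0.08 (log2, SE), and 93.3% of all clusters had a larger one. Its sign turned under 3 of 12 alternatives.

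**Figure D1:**
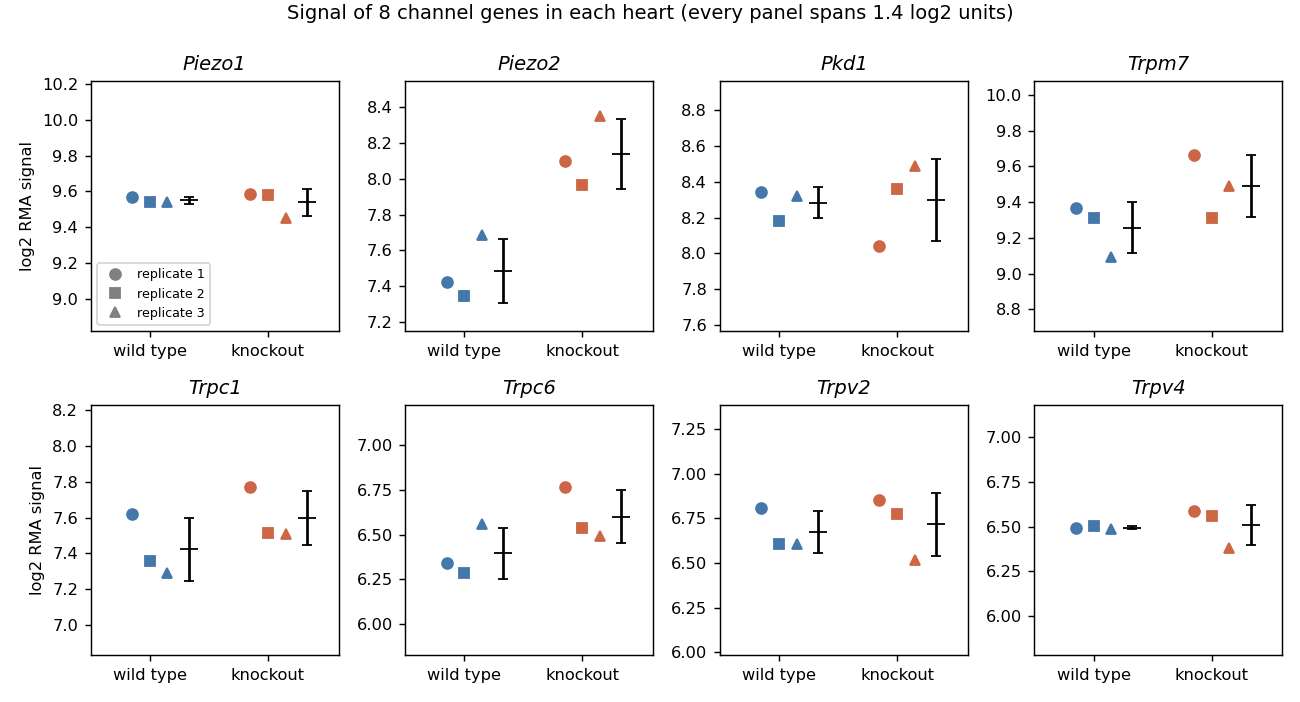
Log2 RMA signal of the 8 measured channel genes in each heart, with wild type in blue and knockout in orange, marker shape giving the replicate, and black bars the mean ± SD (n = 3). Every panel spans the same height of 1.4 log2 units; only for Piezo2 do the knockout hearts (7.97 to 8.35) all lie above the wild-type hearts (7.34 to 7.69).

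Each Piezo gene was read by 3 transcript clusters, which gave the same gene several readings in the same RNA. The Piezo2 cluster that stands for the gene, number 10459353 with a mean of 7.81 over the 6 arrays, had the largest difference of its 3. Cluster 10459335 (mean 7.36) gave 7.20, 7.05 and 7.30 in the wild-type hearts and 7.27, 7.42 and 7.94 in the knockout hearts, a difference of 0.36 ± 0.17 (log2, SE). Cluster 10459363 (mean 7.30) gave 7.23, 7.02 and 7.24 in the wild-type hearts and 7.22, 7.34 and 7.79 in the knockout hearts, a difference of 0.29 ± 0.16. In both of these the groups overlapped, because knockout replicate 1 fell within the wild-type range. The separation of the groups on which Piezo2 was chosen therefore held for 1 of its 3 clusters. The mean difference of the 3 clusters was 0.44, against 0.66 for the chosen one.

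The 3 readings of Piezo2 parted most in 1 heart. In knockout replicate 1 the chosen cluster lay 0.62 above its wild-type mean, while the other clusters lay 0.09 and 0.05 above theirs. In knockout replicate 2 the chosen cluster lay 0.48 above, with 0.24 and 0.18 for the others. In knockout replicate 3 all 3 were high, at 0.87, 0.75 and 0.62 above their wild-type means. The chosen cluster exceeded the mean of the other 2 by 0.21 to 0.42 in wild-type hearts and by 0.86, 0.58 and 0.49 in knockout replicates 1 to 3. Knockout replicate 3 was therefore the heart in which each Piezo2 cluster was highest, and replicate 1 the one in which the size depended most on the cluster. Which exons or transcripts each cluster reads is not given here.

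The Piezo1 clusters differed little from each other. Their knockout minus wild-type differences were -0.01, -0.06 and 0.00 for clusters 10582378, 10582376 and 10582337, with standard errors of 0.08 to 0.09. Knockout replicate 3 was the lowest heart in all 3, by 0.10, 0.17 and 0.12 below the wild-type means. The same heart was the highest for each Piezo2 cluster.

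**Figure D2:**
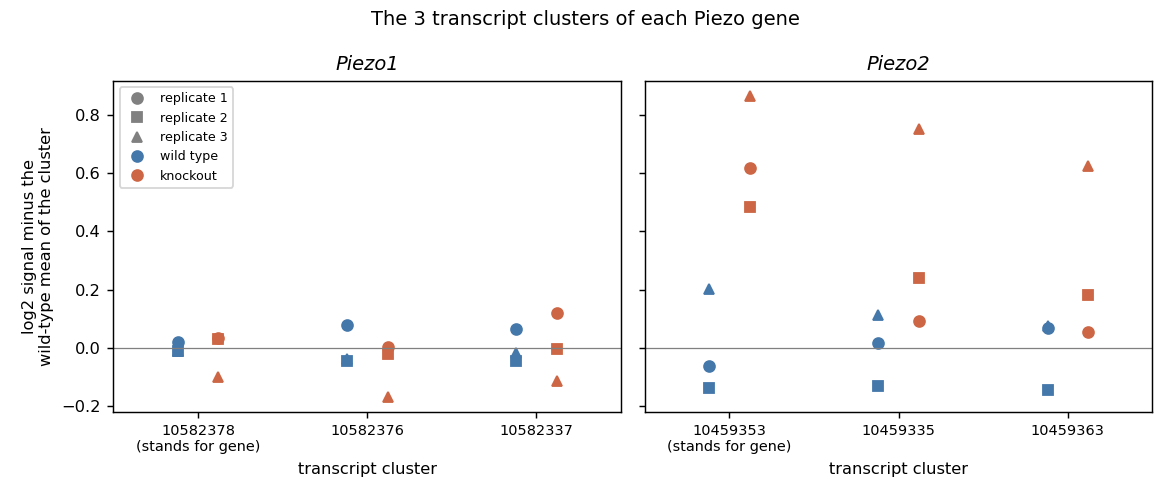
Signal of every Piezo1 and Piezo2 transcript cluster in each heart, as log2 difference from the wild-type mean of that cluster, with wild type in blue, knockout in orange and marker shape for the replicate. Piezo1 stays within 0.17 of zero, and for Piezo2 knockout replicate 1 is 0.62 up in the cluster that stands for the gene and 0.09 and 0.05 up in the others.

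Among the polycystins, Pkd1 was measured. Its signal was 8.34, 8.18 and 8.32 in the wild-type hearts and 8.04, 8.36 and 8.49 in the knockout hearts. Knockout replicate 1 was below all wild-type hearts and replicates 2 and 3 above all of them. The mean difference was therefore near zero, at 0.01 ± 0.13 (log2, SE), with a range of 0.44 among the knockout hearts and 0.16 among the wild-type hearts. Without knockout replicate 1 the difference was 0.14, and without replicate 3 it was -0.08.

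Trpm7, a channel fused to a protein kinase that carries magnesium and calcium and that most tissues express, had the next largest difference after Piezo2. Its signal was 9.36, 9.31 and 9.09 in the wild-type hearts and 9.66, 9.31 and 9.49 in the knockout hearts. Knockout replicates 1 and 3 were above every wild-type heart, and replicate 2 was at the level of wild-type replicate 2. The difference was 0.23 ± 0.12 (log2, SE), or 1.17-fold, and 13.0% of all clusters had a larger one. It was 0.15 without knockout replicate 1, 0.15 without wild-type replicate 3, and 0.09 when arrays were weighted by quality.

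The means of both Trpc genes were higher in the knockout group, with overlapping hearts. Trpc1, a subunit that joins other Trp channels and polycystin 2, gave 7.62, 7.36 and 7.29 in the wild-type hearts and 7.77, 7.51 and 7.51 in the knockout hearts. Wild-type replicate 1 was above knockout replicates 2 and 3, and the difference was 0.18 ± 0.12 (log2, SE). Leaving out wild-type replicate 1 raised it to 0.28, and leaving out wild-type replicate 3 or knockout replicate 1 lowered it to 0.11 or 0.09. Trpc6, a channel opened by diacylglycerol and studied in heart and vessel muscle, gave 6.34, 6.28 and 6.56 in the wild-type hearts and 6.77, 6.54 and 6.49 in the knockout hearts. Wild-type replicate 3 lay among the knockout hearts, and the difference was 0.20 ± 0.11. Without knockout replicate 1 it was 0.12.

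The Trpv genes were close to level. Trpv2, which is found in muscle and in macrophages, gave 6.81, 6.60 and 6.60 in the wild-type hearts and 6.85, 6.78 and 6.52 in the knockout hearts. Its difference was 0.04 ± 0.12 (log2, SE) and turned to -0.03 without knockout replicate 1. Trpv4, a channel opened by swelling and warmth and known from endothelium and epithelia, gave 6.49, 6.50 and 6.49 in the wild-type hearts and 6.58, 6.56 and 6.38 in the knockout hearts. Its difference was 0.01 ± 0.09. The wild-type hearts differed by 0.02 at most and the knockout hearts by 0.21, on either side of them.

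Across the 8 genes, 7 had a higher and 1 a lower mean in the knockout, with a median difference of 0.11, against -0.01 for all clusters, of which 46.5% were higher. The split was 5 higher and 3 lower without knockout replicate 1, where Piezo1, Trpv2 and Trpv4 were negative, and also without knockout replicate 2, while the median stayed at 0.10 and 0.12. Without wild-type replicate 3 the median was 0.07, and without knockout replicate 3 it was 0.18. All these splits and medians include Piezo2, which was chosen for being higher, so nothing is read from them. The remaining differences ran from -0.01 for Piezo1 to 0.23 for Trpm7, with that of Trpv2, 0.04, in the middle. The groups did not overlap for 1 of the 8, Piezo2, and the background share of clusters with no overlap was 12.6% (6.01% higher and 6.61% lower). Since Piezo2 was chosen for that pattern, nothing is read from this count. Just outside the choice stood Trpm7, whose lowest knockout heart was 0.05 below the highest wild-type heart, Trpc6 with 0.06 and Trpc1 with 0.11. Knockout replicate 1 was the highest knockout heart for 6 of the 8 genes and replicate 3 the lowest for 5, while Piezo2 and Pkd1 were highest in replicate 3. The knockout hearts spread more than the wild-type hearts for 7 of the 8 genes, as for 63.3% of all clusters.

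Signals of different clusters cannot be ranked against each other, as their probes bind with different strength, but clusters of olfactory receptor genes give a range for readings of genes that hearts are not known to need. The 1035 such clusters had a median of 4.13, and 95 in 100 of them lay below 5.83. All 8 channel genes were above this value in every heart. For Trpc6, Trpv4 and Trpv2, 1.16%, 1.16% and 0.58% of olfactory receptor clusters were at or above their mean over the 6 arrays. For Piezo2 that share was 0.0966%, and for Piezo1 and Trpm7 it was 0.0%.

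Further genes of these families and of the pathways around them were read from 8 lists. Of 69 listed genes 66 were measured, none of which passed limma's test over all clusters (smallest adjusted p over all clusters 0.601), and 8 had no overlap between the groups, 5 higher and 3 lower. That is 12.1%, beside 12.6% of all clusters.

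Other channels of the same families were mostly dim and level. Of 18 other Trp channels 9 had higher and 9 lower means, with a median difference of 0.01, and 16 lay below the median level of all clusters. Trpc7, a diacylglycerol-gated relative of Trpc6, gave 4.85, 4.76 and 5.09 in the wild-type hearts and 5.25, 5.34 and 5.13 in the knockout hearts, a difference of 0.34 ± 0.11 (log2, SE) at a level under the 5.83 mark of olfactory receptor clusters. Trpm4, a calcium-activated channel for sodium that is expressed in heart, gave 0.08 ± 0.08 with no overlap, though the groups were only 0.001 apart. All 7 other polycystin genes had lower means in the knockout, by a median of -0.03, none without overlap and all below the median level of all clusters. That direction rested on single hearts: 4 were lower and 3 higher without wild-type replicate 3 (median 0.00) and likewise without knockout replicate 3. Of 10 other stretch-linked channels, such as Tmem63b, Lrrc8a and the potassium channel gene Kcnk2, 2 had higher and 8 lower means with a median of -0.03, and none was without overlap; without wild-type replicate 3 the split was 5 and 5. Of these, Tmem63b, a channel that osmotic swelling opens, gave 0.19 ± 0.10.

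Partners and downstream genes showed differences in both directions. Among 4 Piezo partners, 2 had higher and 2 lower means. Mdfic, a protein that binds Piezo channels and slows their inactivation, gave 8.23, 8.31 and 8.34 in the wild-type hearts and 8.47, 8.49 and 8.50 in the knockout hearts. The knockout hearts all lay above the wild-type hearts, by a difference of 0.20 ± 0.08 (log2, SE), and 0.20 without knockout replicate 1. Among 5 genes of store-operated calcium entry, 2 were higher and 3 lower by their means, and Orai1, the pore of that pathway, gave -0.23 ± 0.10 with no overlap. Of 10 calcineurin and NFAT genes 7 were higher and 3 lower. The largest difference of the list was that of the transcription factor gene Nfatc4, at 0.48 ± 0.22 (log2, SE) with overlap. Ppp3cc, a catalytic subunit of calcineurin, gave -0.12 ± 0.08 with no overlap, while Rcan1, whose transcript calcineurin activity is known to induce, gave 0.27 ± 0.19 and 0.05 without knockout replicate 1.

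Genes known to respond to blood flow, 2 with higher and 3 with lower means, had a median difference of -0.17. It was -0.09 without knockout replicate 1, -0.11 without wild-type replicate 3 and -0.25 without wild-type replicate 2. Klf2, an endothelial transcription factor induced by shear, gave 8.41, 8.37 and 8.54 in the wild-type hearts and 8.11, 8.29 and 8.17 in the knockout hearts. All knockout hearts were below all wild-type hearts, by -0.25 ± 0.09 (log2, SE), and -0.21 without knockout replicate 1. Edn1, the vasoconstrictor peptide endothelin 1, which shear lowers in many endothelia, gave 7.57, 7.24 and 7.41 in the wild-type hearts and 8.26, 7.62 and 7.58 in the knockout hearts. The groups were 0.01 apart, and the difference of 0.41 ± 0.19 was 0.19 without knockout replicate 1. The mean of 6 endothelial markers was 10.09 to 10.19 in wild-type and 10.02 to 10.05 in knockout hearts, 5 of the 6 were lower by their means, and their part in the Klf2 value was not tested. Of 7 genes of the primary cilium, where polycystins reside, 5 were higher and 2 lower (3 and 4 without knockout replicate 3, 7 and 0 without knockout replicate 1), and the kinesin motor gene Kif3a gave 0.19 ± 0.08 with no overlap.

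**Figure D3:**
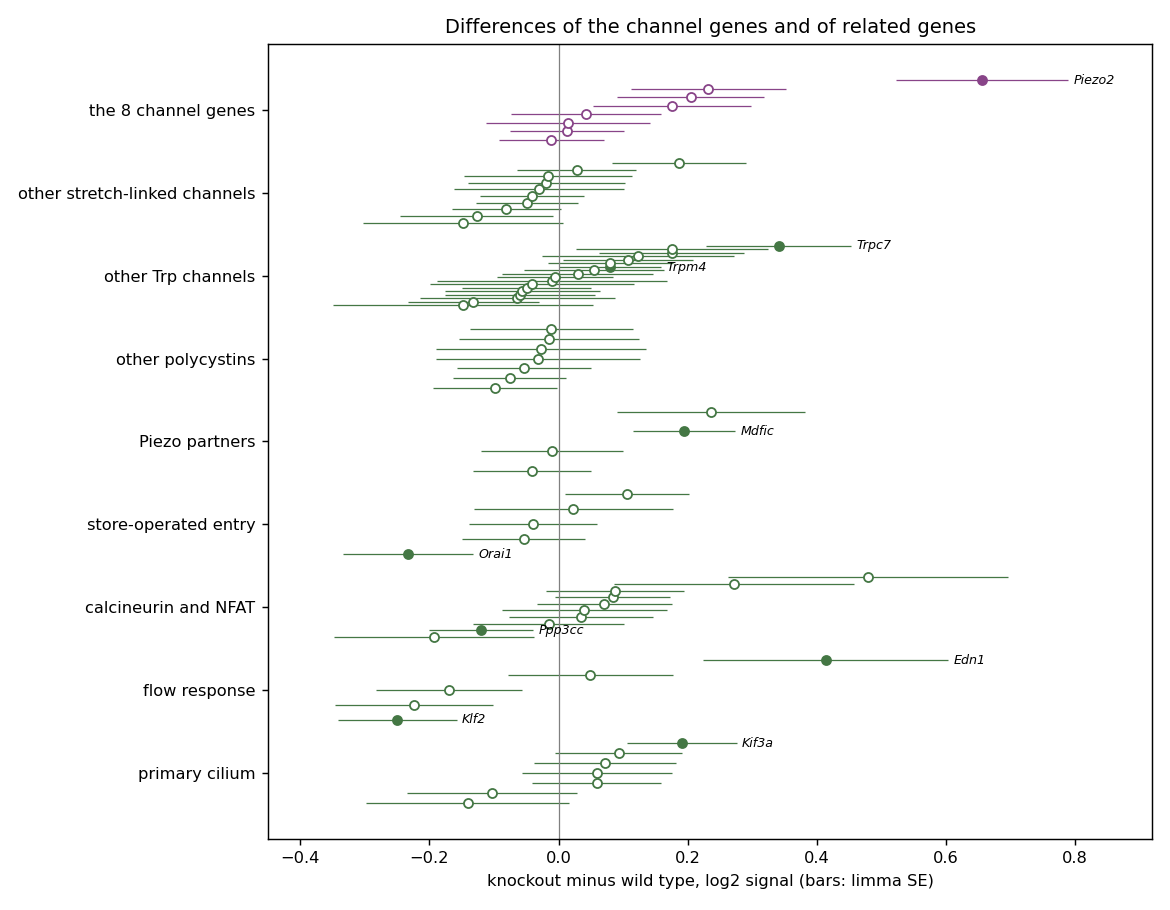
Knockout minus wild-type difference of the 8 channel genes and of 66 related genes in 8 lists, on the log2 scale with limma's standard error (n = 3 per group). Filled and named points are genes whose groups do not overlap, open points those that do; Piezo2 (0.66) has the largest difference shown, and most related genes lie within 0.25 of zero.

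Likeness to Piezo2 was measured on its chosen cluster only. The search covered 1847 other genes at or above the median level and with an SD of at least 0.2. The 6 genes that followed this cluster most closely over the 6 arrays were taken. They were Dact1, an inhibitor of Wnt signalling (Pearson r = 0.967, n = 6 arrays), the growth factor gene Tgfb3 (0.957), Socs2, a suppressor of cytokine signalling (0.949), the actin-binding synaptopodin gene Synpo (0.949), the tenascin C gene Tnc (0.943) and the thrombospondin 2 gene Thbs2 (0.938). These values are descriptive, since the 6 arrays include both groups and the genes were picked as the extremes of many. Dact1 gave 8.05, 7.86 and 8.08 in the wild-type hearts and 8.28, 8.25 and 8.46 in the knockout hearts, and so was lowest in wild-type replicate 2 and highest in knockout replicate 3, as Piezo2 was. The differences of the 6 genes ran from 0.33 for Dact1 to 1.28 for Tnc. Dact1, Socs2 and Thbs2 had no overlap between the groups, beside 12.6% of all clusters, and nothing is read from this, since likeness to Piezo2 brings its separation with it. Of the other channel genes, Trpc6 (r = 0.689) and Trpm7 (r = 0.541) came nearest to Piezo2 and Piezo1 (r = -0.409) was farthest.

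Markers of other cells moved in some of the same hearts. Mean signal of 6 markers of cushion mesenchyme, the tissue that forms the valves, was 7.72, 7.26 and 8.47 in the wild-type hearts and 7.85, 7.95 and 8.56 in the knockout hearts, with all 6 higher by their means and none without overlap. In both groups replicate 3 was highest in the mean of these markers and in Piezo2. Wild-type replicate 3 exceeded knockout replicates 1 and 2 in the marker mean. In the chosen Piezo2 cluster it lay below both. In clusters 10459335 and 10459363 of Piezo2 it lay below knockout replicate 2. There it was slightly above knockout replicate 1, at 7.30 against 7.27 and 7.24 against 7.22. The mean of 5 liver markers was 5.25 to 5.44 in wild-type and 5.80 to 6.33 in knockout hearts, with no overlap. All 5 were higher by their means and below the median level of all clusters. Of them 3 had no overlap, beside 12.6% of all clusters. Albumin (Alb) was at 4.38 to 5.13 in wild-type and 5.83 to 7.15 in knockout hearts, and Afp differed by 1.20 ± 0.30 (log2, SE). Apoa1 and Ttr differed by 0.19 ± 0.09 and 0.09 ± 0.11, with overlap. The part of either list in the Piezo2 value was not tested.

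Markers of neurons, in which Piezo2 is best known, were dim. All 9 measured neuron markers lay below the median level of all clusters, and their means were 5.57 to 5.81 in wild-type and 5.64 to 5.87 in knockout hearts. By their means 7 were higher and 2 lower. Dbh, an enzyme of noradrenaline synthesis, was the 1 neuron marker of 9 with no overlap, beside 12.6% of all clusters. It gave 5.62, 5.64 and 5.39 in the wild-type hearts and 5.06, 5.21 and 4.99 in the knockout hearts. The difference was -0.47 ± 0.11 (log2, SE), at a level under the 5.83 mark of olfactory receptor clusters. Isl1, which also marks heart progenitors, gave 0.39 ± 0.41, and the sensory neuron gene Pou4f1 gave 4.97 to 5.23 in wild-type and 4.80 to 5.30 in knockout hearts. The 4 markers of neural crest and glia were at 6.28 to 6.41 and 6.26 to 6.42. The means of both lists overlapped between the groups.

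Knockout replicate 1 carried strong blood cell signal. The mean of 4 megakaryocyte markers was 9.21 in it, 7.06 and 6.90 in knockout replicates 2 and 3, and 6.68 to 6.88 in the wild-type hearts. Without knockout replicate 1 the difference of this mean was 0.19. Of the 4 markers, 2 had no overlap, Pf4 and Ppbp, both higher, beside 12.6% of all clusters. The mean of 4 erythroid markers was 9.20 in knockout replicate 1, against 7.62 to 8.14 in the other hearts. Trpm7, Trpc1, Trpc6, Trpv2, Trpv4 and Piezo1 were highest in this heart, and without it their differences were 0.15, 0.09, 0.12, -0.03, -0.03 and -0.03. The part of these markers in the values was not tested. Piezo2 was as high without it (0.68). The means of 7 macrophage markers were 7.20 to 7.41 in wild-type and 7.28 to 7.43 in knockout hearts. The epicardial, smooth muscle and lung or foregut lists differed by 0.00, 0.09 and 0.07 in their means, and by 0.11, 0.07 and 0.03 without knockout replicate 1.

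**Figure D4:**
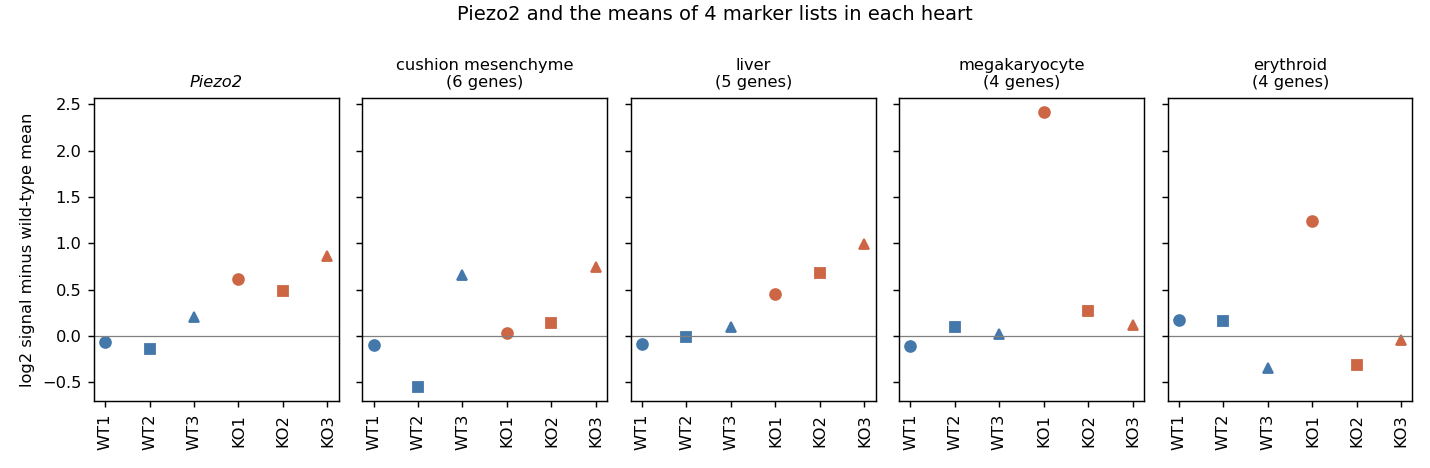
Signal of the chosen Piezo2 cluster and the mean signal of 4 marker lists in each heart, as log2 difference from the wild-type mean, with wild type in blue, knockout in orange and marker shape for the replicate. Knockout replicate 1 stands out in the megakaryocyte and erythroid lists, replicate 3 of both groups in cushion mesenchyme, and all 3 knockout hearts in the liver list and in this Piezo2 cluster. In the other Piezo2 clusters, not plotted, knockout replicate 1 lies within the wild-type range.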

How the data were processed

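The deposited values are log2 signals that the authors made with RMA (robust multi-array average), per the submitters' processing notes. No source used here gives the RMA version, probe annotation, genome build or filters. The table held 28767 transcript clusters. By the platform annotation 21776 clusters had 1 symbol, 1618 had several and 5373 had none, and symbols were updated by Entrez identifier through a RefSeq gene table of GRCm38.p6, used for names and gene order only. Knockout was compared with wild type over all clusters with limma 3.58.1 (R 4.3.3, lmFit and eBayes, two-sided, no covariate, no filter, no pseudocount, Benjamini-Hochberg adjustment, threshold 0.05), and the fit was tested on simulated data. No separate test was run on the channel genes. The channel genes and lists were chosen with earlier results of these data known. Named in the text are Itgb1, the channel genes, of each list the 2 genes with the largest difference among those with no overlap, and the 6 genes most like Piezo2. Tmem63b, Lrrc8a, Kcnk2, Nfatc4, Rcan1, Dbh, Isl1, the cell type markers and neighbouring genes fall outside this rule and were chosen for description. The samples are called biological replicates, but how they were obtained is not said, so errors speak for these samples only. Errors marked SE are limma's moderated standard errors. They draw the spread of each cluster between these samples toward a value estimated from all clusters, and so can differ from the SE of the values shown. The number of arrays limits the precision.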

Additional observations from a re-analysis of the deposited data

How the results depend on the processing

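The count of clusters passing limma's test was 0 under the 9 alternatives that kept all hearts (1 cluster per gene, dim clusters left out, cyclic loess, quantile normalization, centred medians, trended robust variance, array weights, the replicate block and a fold minimum of 1.5), and 0 to 1 when 1 heart was left out. The 1 cluster passed without knockout replicate 1 and was none of the channel genes. The difference of Piezo2 was 0.59 to 0.68 under normalization, weights and block, 0.55 to 0.76 with 1 heart left out, and 0.44 as the mean of its 3 clusters. The channel genes with no overlap numbered 2 with cyclic loess, where Trpc6 joined Piezo2, beside 13.5% of all clusters. They numbered 1 to 3 with 1 heart left out. Trpc1 joined Piezo2 without wild-type replicate 1 (beside 20.3% of all clusters) and Trpc6 without wild-type replicate 3 (24.7%). Pkd1 joined it without knockout replicate 1 (20.5%) and Trpm7 without knockout replicate 2 (23.4%). Piezo1 and Trpv4 joined it without knockout replicate 3 (28.1%). Piezo2, chosen for having no overlap, is in each of these counts, so nothing is read from them. Piezo2, Trpc1, Trpc6 and Trpm7 kept their sign under every alternative, while Piezo1, Pkd1, Trpv2 and Trpv4 turned it under 1 to 3 each. For Piezo2, chosen for having no overlap, leaving out a heart could not turn the sign, so nothing is read from it. Itgb1 was lower throughout (-0.31 to -0.20 with 1 heart left out). Over all clusters, same-numbered hearts did not deviate together, with correlations of -0.04, -0.03 and -0.06. The replicate block left 1508 clusters at an unadjusted p under 0.05 in place of 1705. In the chosen Piezo2 cluster, replicate 3 was highest and replicate 2 lowest in both groups. Its SE was 0.10 with the block and 0.13 without. The medians of the 8 lists moved by less than 1 SD in 71 of 72 alternatives. That SD was the spread of the list mean between hearts of a group. Leaving out 1 of 3 hearts can hardly shift a group mean by that much, so nothing is read from this count. Piezo partners moved to 0.00 without knockout replicate 1. The cause of these shifts was not tested.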

Other observations

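Of 16 genes measured beside the channel genes in the RefSeq gene order, 4 had no overlap between the groups, 1 higher and 3 lower, where 12.6% of all clusters had none. The genes that lie next to Piezo2 overlapped between the groups. Napg, which encodes an adaptor of vesicle fusion, gave 8.24, 8.19 and 8.04 in the wild-type hearts and 7.88, 8.10 and 8.24 in the knockout hearts, a difference of -0.09 ± 0.12 (log2, SE, n = 3 per group). Txnl1, which encodes a thioredoxin-like protein, differed by 0.00 ± 0.11, with overlap between the groups. Next to Piezo1, the replication licensing gene Cdt1 was at 9.17, 9.19 and 9.15 in the wild-type hearts and at 9.03, 9.11 and 8.95 in the knockout hearts. The knockout hearts all lay below the wild-type hearts there, by -0.14 ± 0.08, while Piezo1 itself differed by -0.01. Beside Trpv4, the glycolipid transfer protein gene Gltp lay lower in all knockout hearts than in each wild-type one, by -0.27 ± 0.09, and beside Pkd1 the tuberin gene Tsc2 differed by -0.05 ± 0.08 with overlap. Usp50, a peptidase family gene beside Trpm7, lay higher in all knockout hearts, by 0.30 ± 0.14, with a Trpm7 difference of 0.23. Snord49b, a small nucleolar RNA beside Trpv2, lay lower in all of them, by -0.18 ± 0.08. These genes were chosen by their position after the values of the channel genes had been seen, and none passed limma's test over all clusters.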
